A study of Oryctolagus cuniculus with 24 samples.

Results

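The 9 genes described here encode proteins by which macrophages take up, carry, store and export lipid: LPL, CD36, MSR1, FABP4, FABP5, PLIN2, ABCA1, APOE and NR1H3. They were chosen by symbol, and all 9 had a probe on the array, with 23 probes in all, among 28862 genes measured (9595 of them with a symbol). PBMCs, a mixture of lymphocytes and monocytes isolated from blood, came from 4 rabbits (adult New Zealand White females), which the labels number 1, 2, 4 and 5. Cells of each rabbit were mock-stimulated with buffer, stimulated with LPS at 1 µg/mL, a bacterial cell wall component, or stimulated with PMA at 10 ng/mL plus ionomycin at 1 µg/mL (PMA-Ionomycin), which together activate protein kinase C and raise cell calcium. All cultures were kept in medium with fetal bovine serum and harvested at 4 h (T4) or 24 h (T24), which gave 6 groups of 4 and 24 arrays on 3 slides that each held all groups. The cultures were unsorted PBMCs and not purified macrophages. Of 11 monocyte and macrophage markers found on the array, 10 were well above background on all 4 mock arrays at T4 and 11 at T24.

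Circulating monocytes become macrophages in tissue or in culture and then handle large amounts of lipoprotein. Lipoprotein lipase (LPL) frees fatty acids from triglyceride-rich particles, the scavenger receptors CD36 and MSR1 bind modified lipoproteins (CD36 also long-chain fatty acids), the carriers FABP4 and FABP5 move fatty acids inside the cell, and PLIN2 coats the lipid droplets in which neutral lipid is stored. Excess cholesterol leaves through the transporter ABCA1 and with apolipoprotein E (APOE), and NR1H3, the liver X receptor alpha, is the sterol-activated nuclear receptor that is known to drive ABCA1 and APOE transcription. Levels below are log2 signals relative to the median of the array. They describe a gene across samples and cannot be set against the level of another gene, because probes differ in brightness.

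The probes are 60 bases long, and their positions are those the files give on the oryCun2 build. The sequences are shown because genes differed in how many separate sites their probes read. LPL was read by 1 probe on chromosome 15 (chr15:4570223-4574051, plus strand), whose 60 bases are spread over 3829 bases of genome, so that it crosses an intron.
LPL: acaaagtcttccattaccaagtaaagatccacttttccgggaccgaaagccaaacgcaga
PLIN2 was read by 2 probes on chromosome 1 (chr1:34744488-34745431 for the first below and chr1:34744358-34744417 for the second, plus strand), and ABCA1 by 3 that follow each other without overlap (chr1:8262573-8262632, chr1:8262513-8262572 and chr1:8261856-8262512, plus strand).
PLIN2 first probe: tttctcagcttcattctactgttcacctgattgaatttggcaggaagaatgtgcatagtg
PLIN2 second probe: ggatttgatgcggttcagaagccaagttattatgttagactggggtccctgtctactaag
ABCA1 first probe: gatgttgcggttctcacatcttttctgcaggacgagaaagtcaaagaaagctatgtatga
ABCA1 second probe: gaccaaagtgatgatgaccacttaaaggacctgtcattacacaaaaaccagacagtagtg
ABCA1 last probe: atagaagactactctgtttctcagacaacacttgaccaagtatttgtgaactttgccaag
FABP4 and FABP5 lie close to each other on chromosome 3 (chr3:97155536-97156081 on the minus strand and chr3:96999002-96999402 on the plus strand), and each had 5 probes that are shifted by a few bases along the same stretch. The outermost probes of each are shown, with the bases shared by all 5 in capitals (56 bases for FABP4 and 54 for FABP5), so that the 5 probes of each gene are repeated readings of 1 site.
FABP4 first probe: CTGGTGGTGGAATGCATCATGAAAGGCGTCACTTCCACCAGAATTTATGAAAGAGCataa
FABP4 last probe: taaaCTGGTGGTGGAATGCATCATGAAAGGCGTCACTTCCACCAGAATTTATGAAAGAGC
FABP5 first probe: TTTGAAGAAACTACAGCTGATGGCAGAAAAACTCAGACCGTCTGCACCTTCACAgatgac
FABP5 last probe: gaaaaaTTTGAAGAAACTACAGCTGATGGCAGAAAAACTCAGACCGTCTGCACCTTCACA
CD36 had 3 probes on the minus strand of chromosome 7 that do not overlap (chr7:35303267-35304161, chr7:35304652-35304711 and chr7:35304712-35306063), and the first of them gave values unlike the others.
CD36 first probe: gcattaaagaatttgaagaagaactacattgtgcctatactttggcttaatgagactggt
CD36 second probe: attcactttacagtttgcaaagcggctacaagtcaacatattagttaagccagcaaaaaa
CD36 last probe: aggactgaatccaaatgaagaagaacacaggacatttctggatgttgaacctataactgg
MSR1 had 2 probes on chromosome 2, of which the one at chr2:69778518-69778577 (plus strand) is shown, and NR1H3 and APOE had 1 each, the first at chr1:186615879-186615938 (plus strand) and the second without a position in the files.
MSR1: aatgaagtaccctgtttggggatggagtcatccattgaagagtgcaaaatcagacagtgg
NR1H3: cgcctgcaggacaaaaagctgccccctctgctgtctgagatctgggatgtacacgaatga
APOE: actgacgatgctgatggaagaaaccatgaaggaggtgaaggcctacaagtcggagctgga

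FABP5, MSR1, NR1H3 and PLIN2 were well above background on all 24 arrays, ABCA1 on 22 and LPL on 17. CD36 was so on 7 arrays, FABP4 on 5 and APOE on 3. On a given array this means that the scanner software flagged the majority of the gene's probes so. The share of spots well above background was 51.4 to 62.3% over the arrays. A gene was called differentially expressed (DE) when its p from limma was under 0.05 after Benjamini-Hochberg adjustment across the 28862 genes, and every adjusted p below is from that fit unless another is named. The share of higher genes among those DE depended on how arrays were scaled. It was 65.8% for PMA-Ionomycin at T24 and 46.3 to 53.0% with the other scalings tried, and 59.0% and 47.0 to 50.6% at T4. It was 59.1% and as low as 48.9% over time in mock-stimulated cells, 87.7% and 68.8 to 83.3% for the change of the LPS effect with time, and 5.39% and 9.86 to 25.7% for LPS at T4. For PMA-Ionomycin it was 63.8% and 52.7 to 57.4% for the change with time, and against LPS it was 66.2% and 39.1 to 52.7% at T4 and 65.4% and 47.9 to 53.2% at T24. The directions of the called genes among the 9 did not turn with scaling.

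**Figure D1:**
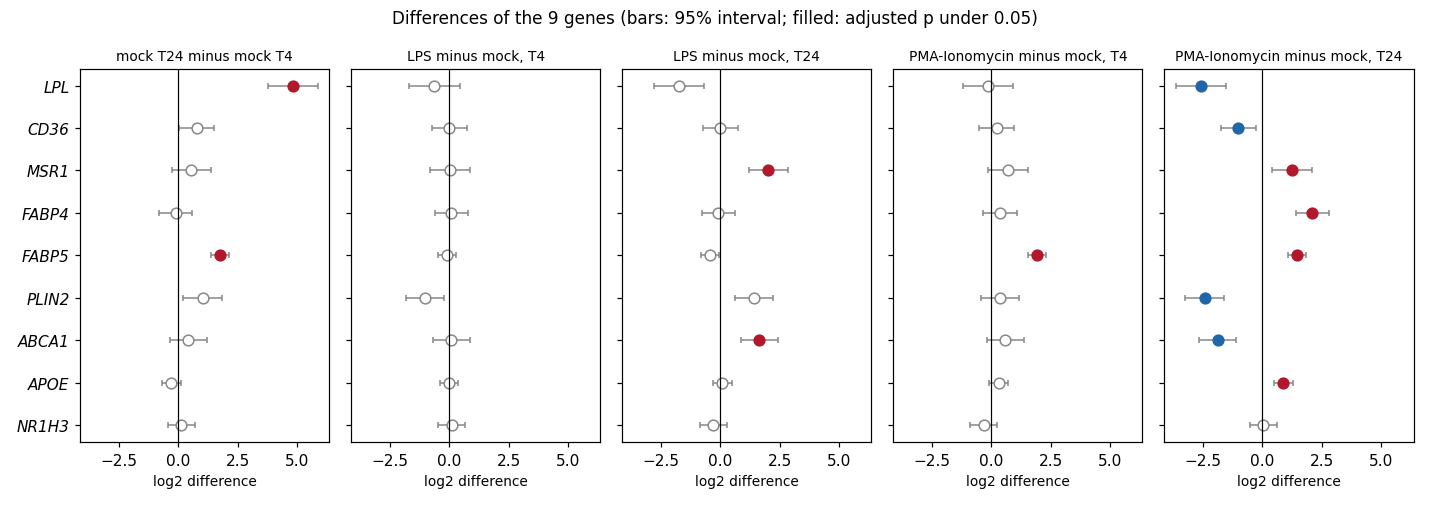
Log2 differences of the 9 genes in 5 comparisons, with the difference on the x axis, 95% intervals from limma as bars and DE genes filled (red higher, blue lower). LPL stands farthest from 0 over time in mock-stimulated cells, at 4.82, no gene is filled after LPS at T4, and 8 of 9 genes are filled after PMA-Ionomycin at T24.

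Over time in mock-stimulated PBMCs, 2 of the 9 genes were up-regulated from T4 to T24, LPL and FABP5, and none was down-regulated. In this comparison 12.5% of all genes were DE (7.41% were higher at T24 and 5.13% lower). LPL, the secreted lipase, had levels of -0.58, 0.45, 0.34 and -0.54 at T4 in rabbits 1, 2, 4 and 5, and was well above background in rabbits 2 and 4 only. At T24 its levels were 3.36, 4.64, 4.48 and 6.46. Every T24 culture thus lay above every T4 culture, and the mean rose from -0.08 ± 0.55 (SD, n = 4 rabbits) to 4.73 ± 1.28. The difference was 4.82 on the log2 scale (SE 0.51), or 28.2-fold, with an adjusted p of 5.06e-07, and it was 4.09 without rabbit 5, which had the highest T24 level, and 6.04 with the processed signal. LPL was higher at T24 in 4 of 4 rabbits, by at least 3.94 in each, and by 3.48 to 6.01 within the slides.

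FABP5, the carrier known from epidermis and macrophages, had levels of 3.65, 3.16, 3.48 and 3.69 in mock-stimulated cells at T4 and 4.88, 5.15, 5.38 and 5.57 at T24. The groups did not overlap. Its rise was 1.75 (SE 0.18), or 3.36-fold (adjusted p = 4.50e-07), in 4 of 4 rabbits, and 1.32 to 1.99 within slides. FABP4, its relative in adipocytes and macrophages, was not well above background in either mock group.

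The other genes did not pass the test over time in mock-stimulated cells. PLIN2 went from 2.18 ± 0.75 at T4 to 3.20 ± 0.91 at T24, a difference of 1.02 (95% interval 0.21 to 1.83, adjusted p = 0.101), with rabbit 4 as the 1 animal in which it was slightly lower at T24. Without that rabbit the difference was 1.39 and passed (adjusted p = 0.0272). MSR1 differed between animals. Its T24 minus T4 difference ran from -0.30 to 2.04, and rabbits 1 and 2 had 2.76 and 1.82 at T24 while rabbits 4 and 5 had 0.52 and 0.18. For ABCA1 the difference was 0.42 (95% interval -0.36 to 1.21) and for NR1H3 0.12 (95% interval -0.45 to 0.69). CD36 was well above background on no mock array at T4 and on 3 of 4 at T24.

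Of 40 other lipid genes found on the array, from lists of scavenger receptors, cholesterol transport, fatty acid storage and nuclear receptor targets, 8 were up-regulated and 2 down-regulated over the same time, beside 7.41% and 5.13% of all genes, and the median of the 40 was 0.08 against -0.06 for all genes. CD68, a glycoprotein of the macrophage lysosome that also binds oxidised lipoprotein, rose 6.57-fold. LIPA, the lysosomal acid lipase that cleaves cholesteryl esters, rose 5.05-fold, and NPC2 and NPC1, which pass cholesterol out of the lysosome, rose 4.40-fold and 3.31-fold. G0S2, an inhibitor of triglyceride lipase, fell 9.79-fold and the acyl-CoA synthetase ACSL4 fell 1.49-fold (adjusted p = 0.0246). The ACSL4 call was lost without rabbit 1, 2 or 4 and with only the arrays compared.

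Monocyte and macrophage markers moved with these genes, and CD68 stands in both lists. Of 11 found, 8 rose from mock T4 to T24, among them CSF1R by 2.92 and CYBB by 3.27, and their summed level went from between 7.93 and 8.90 to between 9.27 and 10.29 (log2 of the summed signals relative to the array median). Platelet markers went the other way, with 6 of 7 lower at T24, and 4 of 7 neutrophil markers were higher. In bulk cultures a change in the number of cells of a type and a change in RNA per cell cannot be told apart, and the part of these changes in the levels of LPL and FABP5 was not tested. Markers of adipocytes, which also express LPL, CD36, FABP4 and PLIN2, were read by ADIPOQ, which was well above background on none of the 24 arrays, and LEP, which was so on 2 or 3 of 4 arrays in each group and never on all 4.

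**Figure D2:**
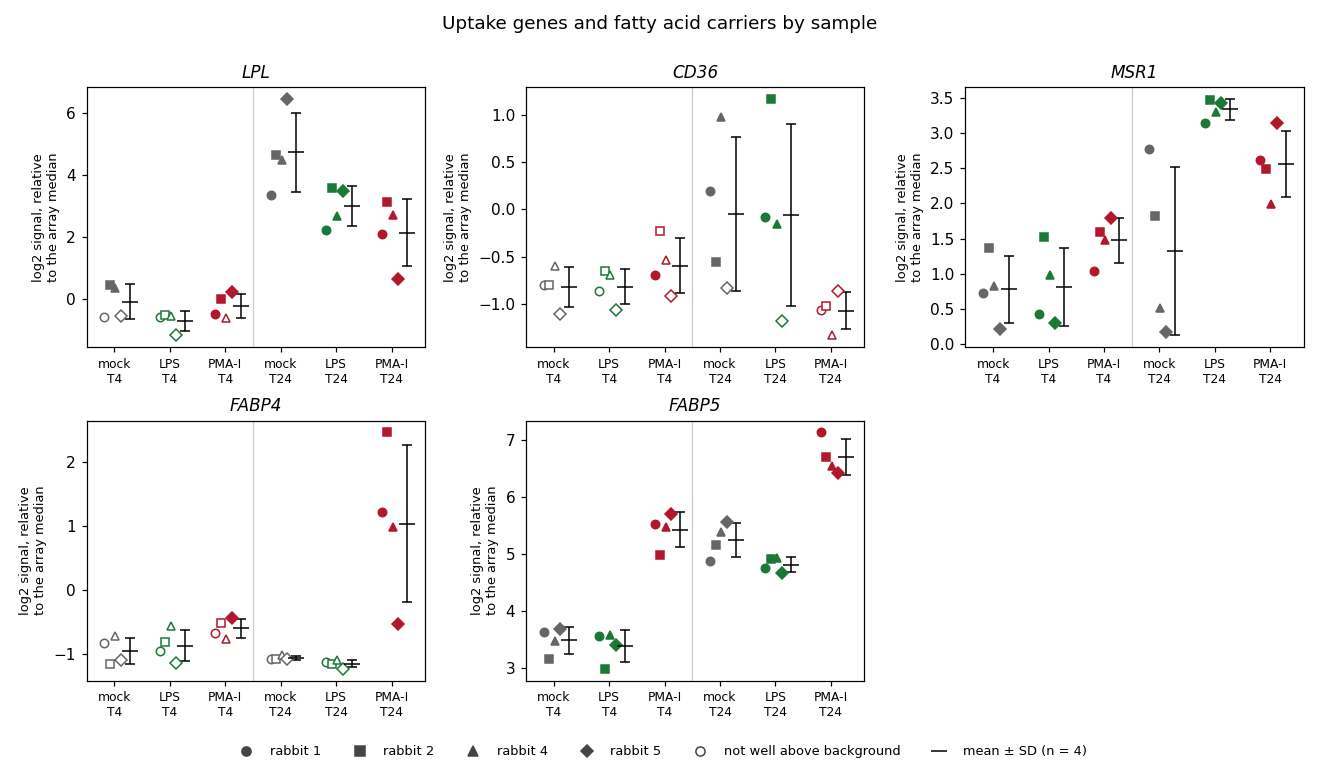
Levels of LPL, CD36, MSR1, FABP4 and FABP5 in each culture, with log2 signal relative to the array median on the y axis, groups on the x axis (PMA-I is PMA-Ionomycin), 1 symbol per rabbit, open where not well above background, and mean ± SD over 4 rabbits. LPL lies between 3.36 and 6.46 in mock-stimulated cells at T24, FABP4 rises above background on all 4 arrays only after PMA-Ionomycin at T24, and MSR1 is spread over the animals in mock-stimulated cells at T24 but lies between 3.14 and 3.46 after LPS.

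LPS left the genes without a DE call at T4, where 1.03% of all genes were DE (0.0554% higher and 0.974% lower). The lowest difference was that of PLIN2, which had levels of 1.12, 2.70, 2.18 and 2.71 in mock-stimulated cells and 1.14, 1.42, 0.94 and 1.10 after LPS. PLIN2 was lower in 3 of 4 rabbits and level in rabbit 1, and its difference of -1.03 (SE 0.39) had an adjusted p of 0.207. It was the 1 gene of the 9 with an unadjusted limma p under 0.05. LPL did not pass (adjusted p = 0.62) and was well above background on none of the LPS arrays. The intervals of ABCA1 (-0.71 to 0.85), MSR1 (-0.80 to 0.86), FABP5 (-0.48 to 0.28) and NR1H3 (-0.47 to 0.67) spanned 0. Of the 11 monocyte markers 5 were lower after LPS at T4, and none of the 40 other lipid genes was DE by limma (10 had an unadjusted p under 0.05).

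At T24, MSR1 and ABCA1 were up-regulated by LPS and none of the 9 genes was down-regulated, where 1.22% of all genes were DE (0.638% higher and 0.582% lower). MSR1, the class A scavenger receptor, had 3.14, 3.46, 3.29 and 3.43 after LPS in rabbits 1, 2, 4 and 5, against 2.76, 1.82, 0.52 and 0.18 in mock-stimulated cells. All LPS cultures lay above all mock cultures. The spread between animals was 1.19 (SD) in mock-stimulated cells and 0.15 after LPS, so that the difference per rabbit ran from 0.37 in rabbit 1 to 3.25 in rabbit 5. The mean difference was 2.01 (SE 0.40), or 4.02-fold, with an adjusted p of 0.00785, which became 0.0828 without rabbit 2, 0.265 without rabbit 4 and 0.204 with only the arrays compared. Within slides the difference ran from 0.68 to 2.79. No rabbit had its T24 mock array on the slide of its T24 LPS or PMA-Ionomycin array. Within-slide differences from mock at T24 are thus between different animals.

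ABCA1, the cholesterol exporter, had 3.65, 3.31, 3.37 and 2.30 after LPS at T24 against 2.71, 1.77, 1.29 and 0.34 in mock-stimulated cells. It was higher in 4 of 4 rabbits, by 0.94 to 2.08, although the groups overlapped, since rabbit 1 had a higher level in mock-stimulated cells than rabbit 5 after LPS. The difference was 1.63 (SE 0.38), or 3.1-fold (adjusted p = 0.029), and the 3 probes printed above gave 1.65, 1.63 and 1.60. The adjusted p was 0.283 without rabbit 2 and 0.417 without rabbit 4, with differences of 1.66 and 1.48. With the slide as a block the difference was 1.61 and the call was lost, as it was with the processed signal (adjusted p = 0.0717) and only the arrays compared (adjusted p = 0.279), and within slides it ran from 0.10 to 2.83.

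PLIN2 and LPL differed in opposite directions after LPS at T24, and neither passed the test. PLIN2 had 5.27, 4.75, 3.86 and 4.55 after LPS against 3.90, 2.85, 2.07 and 3.97 in mock-stimulated cells, higher in 4 of 4 rabbits, with a difference of 1.41 (95% interval 0.60 to 2.22, adjusted p = 0.0826). LPL had 2.23, 3.58, 2.69 and 3.49 against the mock levels given above, lower in 4 of 4 rabbits, with a difference of -1.73 (95% interval -2.79 to -0.68, adjusted p = 0.11). CD36 was well above background on 3 of 4 arrays of both groups, and its levels of -0.08, 1.17, -0.15 and -1.19 after LPS overlapped those of 0.19, -0.55, 0.98 and -0.83 in mock-stimulated cells (difference -0.0094, 95% interval -0.74 to 0.72). FABP5, with -0.43 (95% interval -0.81 to -0.05, adjusted p = 0.374), and NR1H3, with -0.30 (95% interval -0.87 to 0.27), did not pass. FABP4 and APOE were not well above background in either group.

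The change in the LPS effect between T4 and T24 was tested as an interaction, in which 1.94% of all genes were DE (1.7% higher and 0.239% lower). PLIN2 passed, with an LPS effect that was 2.44 higher at T24 than at T4 (SE 0.55, adjusted p = 0.0243), and this difference was positive in 4 of 4 rabbits, from 1.37 to 3.18. The call was lost without rabbit 2, 4 or 5 (adjusted p = 0.261, 0.0991 and 0.0746), with the processed signal (adjusted p = 0.0626) and with only the arrays compared (adjusted p = 0.0575). With the rabbit as a block, which uses that each animal gave all cultures, 3 genes passed in place of 1. They were PLIN2, ABCA1, with 1.56 (adjusted p = 0.0103 with the block and 0.129 without), and MSR1, with 1.98 (adjusted p = 0.0354 with the block and 0.0674 without).

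Of the 40 other lipid genes 2 (beside 1.22% of all genes) were DE after LPS at T24 and 14 had an unadjusted p under 0.05. Both DE genes were higher, STAB1, a scavenger receptor, by 1.88-fold (adjusted p = 0.045) and LPCAT3, which remodels phospholipids and is a known liver X receptor target, by 1.47-fold (adjusted p = 0.0414). Both calls were lost without rabbit 1, 2 or 4, and that of LPCAT3 without rabbit 5 as well. Both were also lost with the processed signal, the deposited log2 table and only the arrays compared, and that of STAB1 with outlier spots kept. The summed monocyte marker level lay between 9.11 and 10.05 after LPS and between 9.27 and 10.29 in mock-stimulated cells at T24, and 1 of 11 markers, MPEG1, differed (lower by 2.17). The summed level of 7 neutrophil markers was 12.52 to 13.15 after LPS and 9.09 to 12.75 in mock-stimulated cells, with 1 marker higher and 2 lower, and its part in the levels of MSR1 and ABCA1 was not tested.

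After PMA-Ionomycin at T4, FABP5 was up-regulated and the other 8 genes were not called, where 22.8% of all genes were DE (13.5% higher and 9.35% lower). FABP5 had 5.53, 4.99, 5.48 and 5.70, above all mock-stimulated cultures of T4. Its difference of 1.93 (SE 0.18) was 3.82-fold with an adjusted p of 3.21e-08, and it was nearly the same in each animal, from 1.83 to 2.01. MSR1 differed by 0.69 (95% interval -0.13 to 1.52, higher in 4 of 4 rabbits, adjusted p = 0.27), ABCA1 by 0.59 (95% interval -0.19 to 1.37) and PLIN2 by 0.37 (95% interval -0.44 to 1.18). LPL, with -0.15 (95% interval -1.20 to 0.91), and NR1H3, with -0.33 (95% interval -0.90 to 0.24), did not pass either. FABP4, CD36 and APOE were well above background on 1 of 4 PMA-Ionomycin arrays each.

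**Figure D3:**
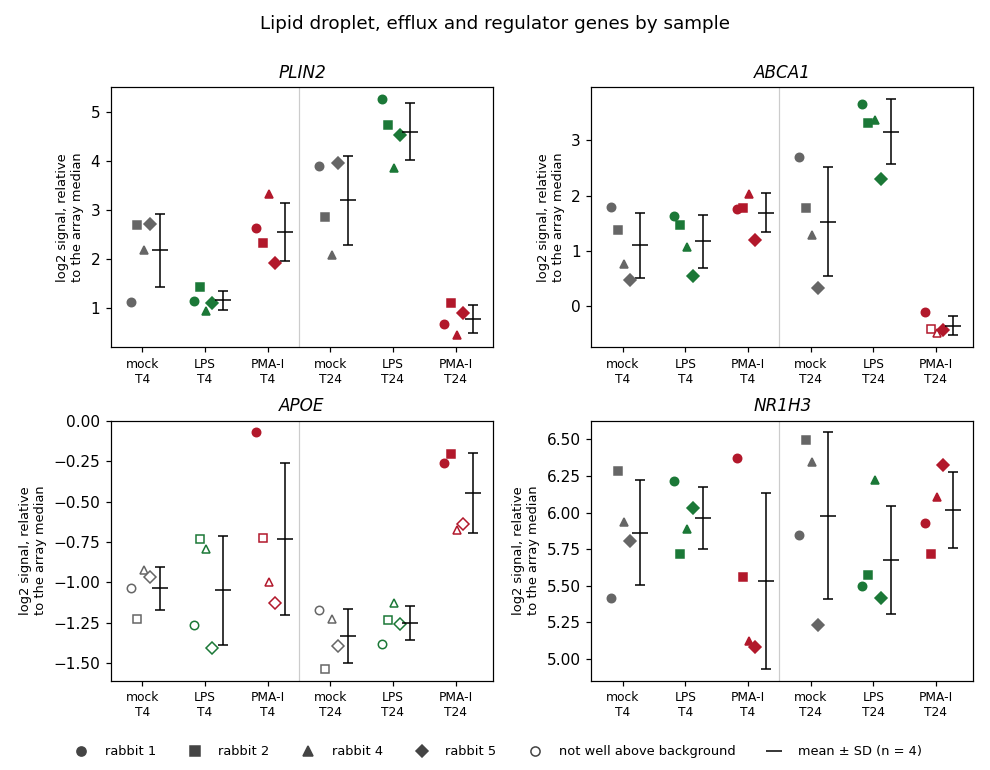
Levels of PLIN2, ABCA1, APOE and NR1H3 in each culture, drawn as in the plot of the uptake genes. PLIN2 and ABCA1 have their highest group means after LPS at T24 and their lowest after PMA-Ionomycin at T24, NR1H3 lies between 5.08 and 6.49 in all cultures, and most points of APOE are open, that is, not well above background.

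At T24 the 9 genes split after PMA-Ionomycin, with 4 up-regulated, 4 down-regulated and NR1H3 not called, where 33.6% of all genes were DE (22.1% higher and 11.5% lower). Both fatty acid carriers, MSR1 and APOE were higher, and LPL, PLIN2, ABCA1 and CD36 were lower. The median of the 9 was 0.04, beside 0.03 for all genes.

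FABP4 was well above background on 5 arrays of the series, and 4 of them were of this group. It had 1.22, 2.46, 0.98 and -0.53 after PMA-Ionomycin at T24, well above background on 4 of 4 arrays, while mock-stimulated cultures lay between -1.08 and -1.02 and none was well above background. FABP4 was therefore at least 3.88-fold higher after PMA-Ionomycin (adjusted p = 2.29e-05), with rabbit 5 the least changed. The 5 probes gave log2 differences of 1.85 to 2.34, which are readings of 1 site, and within slides the difference was 1.31 to 3.55, all against mock levels not well above background. FABP5 had 7.13, 6.70, 6.55 and 6.42, above all mock cultures of T24, and rose by 1.45 (SE 0.18), or 2.74-fold (adjusted p = 7.64e-07), in 4 of 4 rabbits. Quantile normalization gave 0.82, which also passed.

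MSR1 had 2.62, 2.49, 1.996 and 3.13 after PMA-Ionomycin. Its difference from mock of 1.24 (SE 0.40), or 2.36-fold (adjusted p = 0.0177), rested on the animals with low mock levels: it was lower in rabbit 1 by 0.15 and higher in rabbit 5 by 2.96. The adjusted p was 0.0917 without rabbit 4 and 0.253 without rabbit 5, and within slides the difference ran from -0.27 to 2.27. The call was also lost with quantile normalization alone (0.96) or after normexp (0.83), with the processed signal (1.17) and when only the arrays compared were fitted. APOE, the apolipoprotein, was well above background on 2 of 4 PMA-Ionomycin arrays and on no mock array, with levels of -0.67 to -0.21 against -1.54 to -1.17, and was at least 1.41-fold higher (adjusted p = 0.00055). Its signal was higher in 4 of 4 rabbits, but in rabbits 4 and 5 neither array was well above background.

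LPL, PLIN2 and ABCA1 fell from levels well above background on 4 of 4 mock arrays, and CD36 from levels so on 3 of 4. LPL had 2.10, 3.12, 2.70 and 0.65 against mock levels of 3.36, 4.64, 4.48 and 6.46, and the groups did not overlap. Its difference was -2.59 (SE 0.51), or 6.02-fold lower (adjusted p = 2.40e-04), with rabbit 5 the most changed at -5.80 and a mean of -1.52 without that rabbit (adjusted p = 0.00346), and within slides it ran from -3.37 to -0.24. LPL after PMA-Ionomycin at T24 was still above every T4 culture of the series, where no level exceeded 0.45.

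PLIN2, the droplet coat protein, had 0.66, 1.09, 0.43 and 0.90 after PMA-Ionomycin at T24, below all mock cultures of T24. It fell by 2.43 (SE 0.39), or 5.38-fold (adjusted p = 2.21e-05), in 4 of 4 rabbits, and both of its probes gave that difference (-2.46 and -2.40), which was -3.13 with the processed signal. Within slides it was -2.81 to -2.19. ABCA1 had -0.10, -0.41, -0.48 and -0.43 and was well above background on 2 of 4 arrays. It fell by 1.88 (SE 0.38), or 3.68-fold (adjusted p = 3.03e-04), below all mock cultures, with probes between -1.96 and -1.79 and within-slide values of -3.12 to -0.92, and by 3.17 with the processed signal. CD36 was well above background on none of the PMA-Ionomycin arrays, with levels of -1.33 to -0.86 below those of all mock cultures, and was at least 1.83-fold lower (adjusted p = 0.0277). The nearest mock level, -0.83 in rabbit 5, was itself not well above background, so the separation there is between unmeasured levels. The call was lost without rabbit 1 (adjusted p = 0.176) or rabbit 4 (adjusted p = 0.342). The probes printed second and last gave -1.55 and -1.43, while the first, which was well above background on 3 of 24 arrays, gave -0.07, all against PMA-Ionomycin levels of the gene not well above background.

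NR1H3, the regulator, had 5.93, 5.72, 6.10 and 6.32 after PMA-Ionomycin at T24 and 5.85, 6.49, 6.34 and 5.23 in mock-stimulated cells. The groups overlapped, with a difference of 0.04 (95% interval -0.53 to 0.61, adjusted p = 0.958), and the sign turned with the deposited log2 table (-0.11), the processed signal (-0.24) and quantile normalization (-0.56), without a call under any of these. NR1H3 was not DE in any of the 9 comparisons, and its group means lay between 5.53 and 6.02. With quantile normalization it passed for PMA-Ionomycin against LPS at T4, where the difference was -0.43 without it (adjusted p = 0.299).

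With the interaction, the effect of PMA-Ionomycin differed between T24 and T4 for 4 of the 9 genes, where 22.5% of all genes were DE (14.4% higher and 8.15% lower). FABP4 had a larger effect at T24 (adjusted p = 0.00894), in 3 of 4 rabbits. The fitted size, 1.75 (SE 0.48), is not a measured one, because FABP4 was well above background on no array of either mock group and on 1 of 4 PMA-Ionomycin arrays at T4. PLIN2 (-2.80, SE 0.55, adjusted p = 4.87e-04), ABCA1 (-2.47, SE 0.53, adjusted p = 0.00119) and LPL (-2.45, SE 0.72, adjusted p = 0.0146) had effects that were lower at T24, in 4 of 4 rabbits each. The PLIN2 value was -2.15 without rabbit 1, and with the processed signal those of PLIN2 and ABCA1 were -3.45 and -3.80. The LPL call rested on rabbit 5, without which the value was -1.07 (adjusted p = 0.18), and that of FABP4 was lost without rabbit 1 or rabbit 4 (adjusted p = 0.111 and 0.0938). CD36 passed with the rabbit as a block (adjusted p = 0.0433) and not without it (adjusted p = 0.0808), with 2 of the 4 groups well above background on no array. For FABP5 the effects of both times did not differ by the test (-0.48, 95% interval -1.01 to 0.06), although they did with quantile normalization. In the same interaction 6 of 11 monocyte markers (median -1.68) and 4 of 7 neutrophil markers (median -1.50) were lower. Platelet markers were higher for 5 of 7 (median 1.66). The part of these markers in the interaction of the 9 genes was not tested.

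**Figure D4:**
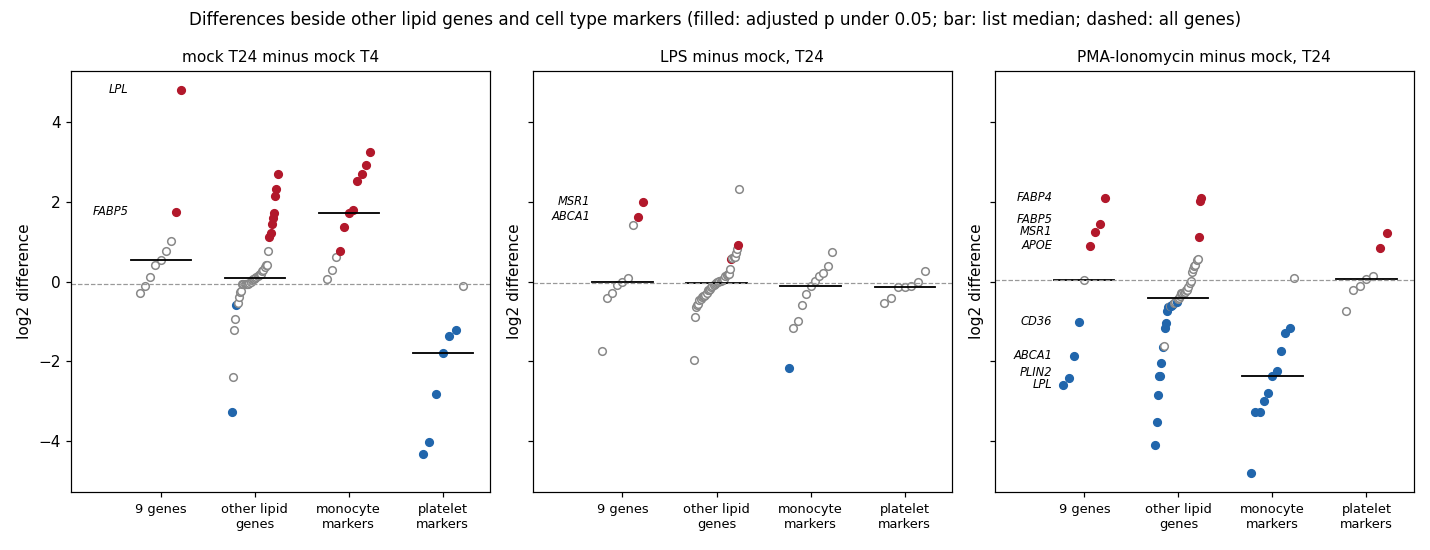
Log2 differences of the 9 genes, 40 other lipid genes, 11 monocyte and macrophage markers and 7 platelet markers in 3 comparisons, 1 point per gene, filled where DE, with the list median as a bar and the median of all genes as a dashed line. After PMA-Ionomycin at T24 the monocyte markers have a median of -2.38 and 10 of 11 are filled below 0, while FABP4, FABP5, MSR1 and APOE lie above 0.

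Among the 40 other lipid genes, 5 were up-regulated and 4 down-regulated by PMA-Ionomycin at T4, and 3 and 15 at T24, with medians of 0.01 and -0.42. Of all genes 13.5% were up-regulated and 9.35% down-regulated at T4, and 22.1% and 11.5% at T24. At T4, NPC1 rose 4.79-fold, ACSL4 4.12-fold and HILPDA, a droplet protein that restrains lipolysis, 3.71-fold. OLR1, a receptor for oxidised LDL, rose 2.40-fold, a call lost without rabbit 1 or rabbit 4, with the processed signal and with only the arrays compared. At the same time MYLIP, a ubiquitin ligase that removes the LDL receptor and a known liver X receptor target, fell 2.98-fold and LIPA fell 2.89-fold. The smaller changes of STAB1 (1.58-fold lower) and ABCG1, another sterol exporter (at least 1.42-fold lower, well above background on none of the PMA-Ionomycin arrays), depended on single animals, the first being lost without rabbit 2, 4 or 5 and the second without rabbit 1 or 4.

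At T24 after PMA-Ionomycin the acyl-CoA synthetases ACSL4, ACSL5 and ACSL3, which activate fatty acids, rose 4.31-fold, 4.10-fold and 2.19-fold, the last not with quantile normalization or the processed signal. LIPA fell 17.4-fold, MYLIP 11.6-fold and NPC1 5.23-fold. MARCO, a scavenger receptor of macrophages, fell 7.26-fold and was well above background on 1 of the 4 PMA-Ionomycin arrays, a call lost without rabbit 4 or rabbit 5. Beside 22.1% of all genes that rose and 11.5% that fell, of 10 scavenger and lipoprotein receptors on the list 5 fell and none rose. Of 11 cholesterol transport genes 4 fell and none rose, of 13 genes of fatty acid activation, storage and hydrolysis 3 rose and 4 fell, and of 8 nuclear receptors and targets 4 fell.

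Monocyte markers fell with these genes. After PMA-Ionomycin at T24, 10 of 11 were lower and none was higher, with CYBB lower by 4.81, CSF1R by 3.29 and CD14 by 3.27, and the summed level lay between 6.92 and 7.57 against 9.27 to 10.29 in mock-stimulated cells. At T4, 6 of 11 were lower (summed level 6.59 to 7.35 against 7.93 to 8.90) and 6 of 7 platelet markers were lower, with 3 of 6 B cell markers lower and 1 higher (median -1.22) and 2 of 7 neutrophil markers lower. Of 7 neutrophil markers 5 were lower at T24, and 2 platelet markers were higher. At T24, LPL, PLIN2, ABCA1 and CD36 thus fell where monocyte markers fell, and FABP4, FABP5, MSR1 and APOE rose there. At T4 monocyte markers fell as well, but none of LPL, PLIN2, ABCA1 and CD36 was called. The part of these markers in the levels of the 9 genes was not tested.

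Set directly against LPS, PMA-Ionomycin gave 2 genes with higher levels at T4 and none with lower, where 26.7% of all genes were DE (17.7% higher and 9.04% lower). FABP5 was higher by 2.04 (SE 0.18), or 4.10-fold (adjusted p = 1.32e-08), and PLIN2 by 1.40 (SE 0.39), or 2.64-fold (adjusted p = 0.00831), both in 4 of 4 rabbits and without overlap. PLIN2 was 1.07 higher without rabbit 4 and then missed the threshold (adjusted p = 0.0567).

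At T24, the direct comparison of PMA-Ionomycin with LPS called 3 of the genes higher and 3 lower, where 36.1% of all genes were DE (23.6% higher and 12.5% lower). PLIN2 was 14.3-fold lower (-3.84, SE 0.39, adjusted p = 2.48e-08) and ABCA1 11.4-fold lower (-3.51, SE 0.38, adjusted p = 5.94e-08), in 4 of 4 rabbits each and with no overlap. ABCA1 was well above background on 2 of the 4 PMA-Ionomycin arrays, and with the processed signal the differences were -4.64 for PLIN2 and -5.06 for ABCA1. CD36 was at least 1.82-fold lower (adjusted p = 0.0271), lower in 3 of 4 rabbits, with groups that overlapped, and lost its call without rabbit 1, 2 or 4 (adjusted p = 0.132, 0.236 and 0.0877) and with only the arrays compared (adjusted p = 0.0541). FABP4 was at least 4.04-fold higher (adjusted p = 1.15e-05), FABP5 3.68-fold higher (1.88, adjusted p = 1.28e-08, and 1.21 with quantile normalization) and APOE at least 1.45-fold higher (adjusted p = 0.00126). MSR1 was lower after PMA-Ionomycin than after LPS in 4 of 4 rabbits, with no overlap between the groups, but did not pass (-0.77, 95% interval -1.60 to 0.05, adjusted p = 0.152), although it passed with quantile normalization. LPL did not pass either (-0.86, 95% interval -1.91 to 0.20). These comparisons share their samples with those against mock-stimulated cells. Of the monocyte markers 9 of 11 were lower after PMA-Ionomycin than after LPS at T24 (median -1.96), as were 5 of 7 neutrophil markers (median -1.79), and at T4 3 monocyte markers were lower and 1 higher and 5 of 7 platelet markers were lower (median -1.35). Of 6 B cell markers 3 were lower and 1 higher at T4 (median -1.03), and 2 lower and 1 higher at T24. The 2 NK cell markers found were higher at T24 (median 0.72). Their part in these differences was not tested.

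Of the 40 other lipid genes, 10 were higher and 2 lower after PMA-Ionomycin than after LPS at T4, and 4 were higher and 16 lower at T24. Of all genes 17.7% were higher and 9.04% lower at T4, and 23.6% and 12.5% at T24. HILPDA was 5.69-fold higher, NPC1 5.36-fold, ACSL4 4.47-fold and NPC2 3.80-fold at T4, while LIPA was 1.90-fold and ACSL5 1.49-fold lower, the last a call lost without rabbit 1, 2 or 4. At T24 DGAT2, which makes triglyceride, was 15.5-fold lower, LIPA 11.1-fold, MYLIP 8.60-fold and SCARB2, a lysosomal membrane protein, 4.06-fold. ACSL4, ACSL5 and ACSL3 were 4.87-fold, 4.09-fold and 2.14-fold higher, the last not with quantile normalization or the processed signal and not without rabbit 1, 2 or 4.

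Across the 24 arrays, the 9 genes did not rise and fall as 1 group. The closest pair was ABCA1 and PLIN2, with a Pearson r of 0.76, as a description over arrays that share animals, groups and slides. NR1H3 had an r between -0.31 and 0.13 with the other 8 genes. Among 6016 genes with a symbol that were well above background on at least 12 arrays, those close to ABCA1 included PRKCH (r = 0.92) and FNDC3B (0.91). PLIN2 was closest to RIPK1 (0.95), HIF1AN (0.93) and PTK2B (0.93), and LPL to NIN (0.93), ZNF74 (0.93) and CPPED1 (0.92). For FABP5 these were BDH1, SHMT1 and VPS35 (0.93 to 0.94), for MSR1 MPZL1, STEAP1 and CEPT1 (0.85 to 0.89) and for NR1H3 NAA40, CREB3L2 and C17H17orf50 (0.87 to 0.89).

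Probes filed under other identifiers gave a further reading of some of these genes, since 3 of them hold the same 60 bases as a probe printed above. The copy of the first ABCA1 probe had 3.85 ± 0.63 after LPS, 2.10 ± 1.23 in mock-stimulated cells and 0.07 ± 0.20 after PMA-Ionomycin at T24. Its differences from mock were 1.75 (adjusted p = 0.0469) and -2.03 (adjusted p = 8.16e-04), adjusted over all probes. The copy of the APOE probe was higher after PMA-Ionomycin at T24 (adjusted p = 0.0021), with 3 of 4 arrays well above background there and none in mock-stimulated cells, so that the size has only a bound. The copy of the NR1H3 probe differed by 0.07 between these groups (adjusted p = 0.914). A further probe that shares 30 bases with the first PLIN2 probe was 2.18 lower after PMA-Ionomycin at T24 (adjusted p = 5.21e-05), with a difference of 1.45 after LPS that did not pass (adjusted p = 0.0505). Copies on the same arrays repeat the measurement and not the experiment.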

How the data were processed

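Cultures of 4 rabbits in 6 groups were each hybridised as Cy3-labelled RNA to an array of their own (3 slides, each with all 6 groups). The authors deposited the scanner output of Feature Extraction 10.7.3.1, whose median, mean and local background columns are unscaled spot intensities, and whose processed column is an intensity from which background was subtracted. A further table deposited by the authors gives log2 values for 42089 probes and 24 arrays (column medians of -1.11 to -0.811), which equal the log2 median signal minus 1 constant per array (within 9.95e-09 for probes with 1 spot), so scale and direction are known and only the centring differs. The positions are on oryCun2, the build of the file headers.

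Following the methods of the study, log2 median signals were centred within each array on the median over non-control spots. Control spots and spots flagged as outliers (280 to 370 per array) were left out. Spots were averaged per probe, and probes per gene, giving 61657 spots, 42089 probes and 28862 genes. Probes were named by RefSeq accession (11506 probes), gene number (8929), the gene name or description of the files (398) or the study's list of added immune genes (460), through the RefSeq table of the mOryCun1.1 assembly, and 20796 kept an identifier. With limma 3.58.1 (lmFit, eBayes) in R 4.3.3, a mean per group was fitted over the 24 arrays, and p-values were two-sided and adjusted by Benjamini-Hochberg over all genes. The scripts were tested on simulated data. Plots used Python 3.11.15 with matplotlib 3.10.9. A gene well above background on no array of a group has only a bound there, for which the dimmer group was set, per array, to the higher of its own signal and the lowest signal well above background, and the text then writes at least N-fold. The number of arrays limits the precision.

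The 9 genes, the other lipid genes (40 of 61 found), the marker lists and the tests were chosen with earlier results of these data known. All 9 genes are named. In each comparison of 2 groups, up to 4 other lipid genes per direction are named, those DE with the largest change, the same direction in 4 of 4 rabbits and well above background throughout the brighter group. Likeness was ranked by Pearson r over 24 arrays. One gene of that ranking is not reported here. Markers of B cells (6 of 9 found), T cells (10 of 13), NK cells (2 of 5) and erythrocytes (5 of 8) were read too. After PMA-Ionomycin at T24, 1, 1, 2 and 0 of them were higher and 3, 2, 0 and 1 lower, and from mock T4 to T24, 1, 0, 0 and 0 were higher and 0, 2, 0 and 1 lower.

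The rabbit numbers mark the same animals in all groups. After group means were removed, 60 pairs of arrays from 1 animal correlated with a median of 0.228, and 180 pairs from different animals and groups with -0.07. The study used no pairing, so the blocked fit by rabbit was run as an alternative. P-values measure the spread between these 4 animals. The results were recomputed with the log2 table as deposited, with quantile normalization alone or after normexp (offset 50), with processed signals scaled to their 75th percentile, leaving out dim probes, keeping outlier spots, fitting only the arrays compared, a block for rabbit or for slide, eBayes with trend and robust, the brightest probe per gene, and leaving out each rabbit.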

Additional observations from a re-analysis of the deposited data

Results flagged for a closer look

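The effect of a stimulation differed between T24 and T4 by the interaction test for 5 results. For LPS this was PLIN2, at 2.44. For PMA-Ionomycin it was FABP4, at 1.75 (both mock groups not well above background, so that this size is not measured), ABCA1, at -2.47, LPL, at -2.45, and PLIN2, at -2.80. PLIN2 is the 1 gene of the 9 flagged for both stimulations, in opposite directions. Within groups of 4 rabbits, 2 of 54 gene and group combinations held a culture far from the others by Dixon's criterion, which chance flags in about 1 of 20 groups. FABP4 in mock-stimulated cells at T24 had -1.02 in rabbit 4 against -1.0842 to -1.0803 in the others, all not well above background, and LPL after LPS at T4 had -1.18 in rabbit 5 against -0.60 to -0.52 in the others, also not well above background. The FABP4 cultures enter the called difference from PMA-Ionomycin at T24, which was given as a bound.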

How the results depend on the processing

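The 26 called differences kept their direction under all 15 alternatives (388 values, since leaving out dim probes removed APOE), and 17 stayed called under each. No gene was called after LPS at T4 under any of them. For LPS at T24 the count of called genes was 1 with the processed signal, 1 with the slide as a block, 0 with only the arrays compared and 0 to 2 leaving out each rabbit. For the LPS interaction it was 0 with the processed signal, 0 with only the arrays compared, 2 with the brightest probe, 2 without dim probes, 3 with the rabbit as a replicate block and 0 to 2 leaving out each rabbit. For PMA-Ionomycin against LPS at T4 it was 1 to 2 leaving out each rabbit. The blocked fit changed no call beside those given above. MSR1 after PMA-Ionomycin at T24 was the 1 called value that turned on a slide (-0.27), and 20 of 21 kept their sign on every slide. That value sets rabbit 2 after PMA-Ionomycin against rabbit 1 in mock-stimulated cells. All within-slide differences from mock at T24 are between different animals, and the differences per rabbit there are between slides. With the processed signal the median of all genes for PMA-Ionomycin against LPS at T4 was -0.41 in place of -0.04, and differences of dim genes were wider, such as FABP4 after PMA-Ionomycin at T24 (4.47 in place of 2.10, both against mock levels not well above background), APOE (2.33) and CD36 (-2.76) in that comparison, and LPL over time (6.04). For FABP5 at T24 the PMA-Ionomycin difference was 0.82 with quantile normalization. Over all genes, 352 were called for LPS at T24, and 47 with only the arrays compared, 749 with the rabbit as a block and 85 to 610 leaving out each rabbit. For LPS at T4 these were 297, 0, 1230 and 0 to 119 (8 to 116 with the other scalings and 114 with eBayes trend), and for the LPS interaction 561, 220, 1661 and 7 to 402 (176 with the processed signal). Over time in mock-stimulated cells 3619 were called, and 2267 to 3668 leaving out each rabbit. Dimness limits APOE, CD36 and FABP4, which were well above background on 3, 7 and 5 of 24 arrays.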

Other observations

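A probe complementary to the LPL probe over 53 bases, that is, of the opposite strand (chr15:4573990-4574044), was well above background on 4 of 4 mock-stimulated arrays at T24 and on none at T4. Its level was 0.29 ± 0.62 (SD, n = 4) at T24, higher than at T4 (adjusted p = 9.51e-05 by limma over all probes), where the size has only a bound. At T24 it was lower after LPS (adjusted p = 0.0172), where it was well above background on none of 4 arrays, and after PMA-Ionomycin, where it was so on 3 of 4 and lower by 0.78 (adjusted p = 0.00889).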
